A study of Homo sapiens with 66 samples.

Results

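ChIP-seq, in which DNA recovered with an antibody from cross-linked chromatin is sequenced, was applied to ask where subunits of the hypoxia-inducible factor (HIF) bound DNA after 6 h at 0.5% oxygen or at 3% oxygen, a milder hypoxia, in HKC8, a human renal proximal tubule epithelial cell line. Antibodies to HIF-1α, HIF-2α or HIF-1β were used, with 2 libraries for each antibody at each oxygen level. The 12 deposited peak lists of these libraries were taken, which are 12 of the 50 peak lists and 13843 of the 131425 peaks of the series, whose 66 samples also cover longer hypoxia in HKC8 and other cell lines. Cells of both groups were unmodified and received no agent other than low oxygen, and no normoxic HKC8 list entered the comparison, so binding at 3% was set against binding at 0.5% and not against its absence. The replicates are described as independent ChIP-seq experiments in one cell line, so every test measured the spread between such experiments in that line. The peak lists hold no gene expression, and the labelled kidney cell type could not be checked against markers.

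HIF is a heterodimer of an oxygen-regulated α subunit, HIF-1α or HIF-2α, and the constitutive partner HIF-1β. In oxygenated cells prolyl hydroxylases of the EGLN family mark the α subunits for destruction through the von Hippel-Lindau protein, and both subunits accumulate as oxygen falls. The dimer recognises a short core, RCGTG, within the hypoxia response element (HRE), and HIF-1 is best known for genes of glycolysis while HIF-2 often binds far from promoters. The AP-1 factors, which are dimers of the JUN and FOS families, recognise TGACTCA or its reverse, TGAGTCA.

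Peaks of 1 antibody that overlapped by at least 1 bp in any of its 4 libraries were merged into a site. A site called in both 0.5% libraries and both 3% libraries was termed kept. A site called in both 0.5% libraries was termed partly kept when 1 of the 3% libraries called it and 0.5%-only when neither did. A site called in both 3% libraries and in neither 0.5% library was termed 3%-only. These classes are of calls and not of signal, so a site without a call may still be bound. The paper compared signal at these oxygen levels after 6 h, at sites shared by a HIF-α subunit and HIF-1β. It reported strong correlation and saw no evidence for sites that only 1 of the levels bound. Each peak has a score in the form that the peak caller MACS gives, -10 times the base-10 logarithm of its p-value, and the lists ended at a score of 50, so a missing call may lie just under that limit. The score grows with read depth, which the lists do not give, and was therefore used only to rank peaks within their own list. Sites were named by the protein-coding gene with the nearest transcription start site (TSS), which need not be the gene that the site regulates.

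The stretches of 61 bases below show what the caller found at the strongest kept and 0.5%-only sites. They are given 5′ to 3′ on the plus strand of GRCh37, and capitals mark HRE cores, searched as ACGTG and GCGTG on both strands with CACGTG counted once. The ANKRD37 site (chr4:186317649-186317709, in an intron) and the FAM174B site (chr15:93352394-93352454, in an intron) were the best ranked kept HIF-1α sites outside UTRs, and were kept for HIF-1β too.
ANKRD37: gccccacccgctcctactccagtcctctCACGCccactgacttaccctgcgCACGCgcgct
FAM174B: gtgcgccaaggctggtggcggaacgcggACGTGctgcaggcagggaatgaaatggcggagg
The HK2 site (chr2:75060997-75061057, upstream of the gene) and the PFKFB4 site (chr3:48594688-48594748, in an intron) were 0.5%-only for both HIF-1α and HIF-1β.
HK2: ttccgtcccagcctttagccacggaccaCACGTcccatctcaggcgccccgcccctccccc
PFKFB4: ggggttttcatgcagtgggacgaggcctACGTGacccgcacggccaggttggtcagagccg
The best ranked kept HIF-2α sites, at SERTAD4 (chr1:210439104-210439164, intergenic) and ROBO2 (chr3:76546975-76547035, in an intron), held no HRE core, and the ROBO2 stretch is a tandem repeat in which 93.0% of bases equal the base 18 positions further on.
SERTAD4: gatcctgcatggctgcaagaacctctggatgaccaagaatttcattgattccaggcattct
ROBO2: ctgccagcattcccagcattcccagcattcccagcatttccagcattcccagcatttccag
The best kept HIF-2α sites with a core, chosen after their values were seen, were at ARRDC3 (chr5:90576433-90576493, intergenic) and SEMA4B (chr15:90709085-90709145, in an intron).
ARRDC3: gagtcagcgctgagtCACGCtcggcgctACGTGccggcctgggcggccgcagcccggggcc
SEMA4B: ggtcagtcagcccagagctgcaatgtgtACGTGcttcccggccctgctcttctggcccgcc
The best 0.5%-only HIF-2α sites were at DNAJB12 (chr10:74079454-74079514, intergenic) and ADM (chr11:10329694-10329754, intergenic), and the ADM stretch also holds an AP-1 motif.
DNAJB12: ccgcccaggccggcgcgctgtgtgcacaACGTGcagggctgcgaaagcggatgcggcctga
ADM: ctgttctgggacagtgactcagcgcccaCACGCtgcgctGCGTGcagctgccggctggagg
The best 3%-only HIF-1β sites, at PLEKHA6 (chr1:204265755-204265815, in an intron) and PTPRB (chr12:71039536-71039596, in an intron), were also chosen after their values were seen, and each holds 1 core.
PLEKHA6: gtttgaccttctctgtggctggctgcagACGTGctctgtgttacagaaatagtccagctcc
PTPRB: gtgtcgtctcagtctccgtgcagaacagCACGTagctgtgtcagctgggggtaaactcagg

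Fewer peaks were called at 3% oxygen with every antibody. The HIF-1α lists held 1496 and 1319 peaks at 0.5% and 1223 and 656 at 3%. The HIF-2α lists held 1417 and 1493 peaks at 0.5% and 558 and 977 at 3%. The HIF-1β lists held 1284 and 1271 peaks at 0.5% and 1205 and 944 at 3%. For no antibody did the ranges of the 2 oxygen levels overlap, and the mean difference over the antibodies was a log2 change of -0.63 (exact permutation test over libraries with oxygen labels permuted within antibody, two-sided, p = 0.00926, the smallest that the arrangements allow; Benjamini-Hochberg adjusted p = 0.0417 over 9 tests). Within 1 antibody, 2 libraries against 2 cannot go below p = 0.333 in an exact permutation test, so single antibodies were not tested. The call was lost without any 1 of the 0.5% libraries or the second 3% HIF-1α library, where the change was still -0.66 to -0.48 (adjusted p = 0.0703 to 0.0833 by exact permutation). It was also lost with peaks scoring at least 100 only, with a change of -0.89 (adjusted p = 0.0703 by exact permutation). With oxygen labels permuted only between same-numbered libraries, the change was not called either (exact permutation p = 0.03125, the smallest possible, adjusted p = 0.0703). Read depth also moves the number of peaks, and its part in the difference was not tested. Median peak widths were 150 to 238 bp except in the second HIF-1β library of each oxygen level, at 495 bp (0.5%) and 632.5 bp (3%), and motifs were therefore searched in a window of fixed length.

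The shorter lists at 3% were also poorer in promoter peaks, those centred within 1 kb of a protein-coding TSS. For HIF-1α, 20.3% and 13.6% of peaks lay at promoters at 0.5% and 9.93% and 6.29% at 3%. For HIF-2α the shares were 8.50% and 8.01% at 0.5% and 6.53% and 6.63% at 3%. For HIF-1β they were 19.5% and 20.6% at 0.5% and 16.4% and 14.4% at 3%. Every 3% library lay below both 0.5% libraries of its antibody, and the mean difference was -5.03 percentage points (exact permutation test, two-sided, p = 0.00926, adjusted p = 0.0417). The HIF-1α lists differed by -8.81 points, the HIF-2α lists by -1.68 and the HIF-1β lists by -4.61. Without the first 0.5% HIF-1α library it was -3.91 points and without the second 3% HIF-1α library -4.42 points, and neither was called (adjusted p = 0.0703 and 0.0833 by exact permutation). With peaks scoring at least 100 only, it was -2.79 points and was no longer called (exact permutation p = 0.343, adjusted p = 0.44). Permuting oxygen labels only between same-numbered libraries also lost the call (exact permutation p = 0.03125, the smallest possible, adjusted p = 0.0703).

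HRE cores within 100 bp of the peak centre were searched in every list. The share of HIF-1α peaks with a core was 40% and 38.4% at 0.5% and 32.6% and 28.2% at 3%. The share of HIF-2α peaks was 37.5% and 39.9% at 0.5% and 32.1% and 40.4% at 3%, which overlap. The share of HIF-1β peaks was 51.7% and 56.7% at 0.5% and 50.4% and 50.8% at 3%. Windows 2 kb to either side of the peaks held a core in 19.2% to 23.2% of cases, below every list, and 41.0% of the 78564 windows of the same length around protein-coding TSSs held one. The mean difference of -4.94 points did not pass after adjustment (exact permutation p = 0.0463, adjusted p = 0.0833). Peaks with 2 or more cores made up 15.8% and 12.9% of the HIF-1α lists at 0.5% and 9.52% and 6.44% at 3%. For HIF-1β they made up 24.3% and 23.4% at 0.5% and 19% and 16.6% at 3%, and for HIF-2α 12.8% and 12.9% against 10.7% and 13.1%. The mean difference of -4.43 points was not called (exact permutation p = 0.0278, adjusted p = 0.0703). AP-1 motifs differed by -0.48 points (exact permutation p = 0.519, adjusted p = 0.583).

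**Figure D1:**
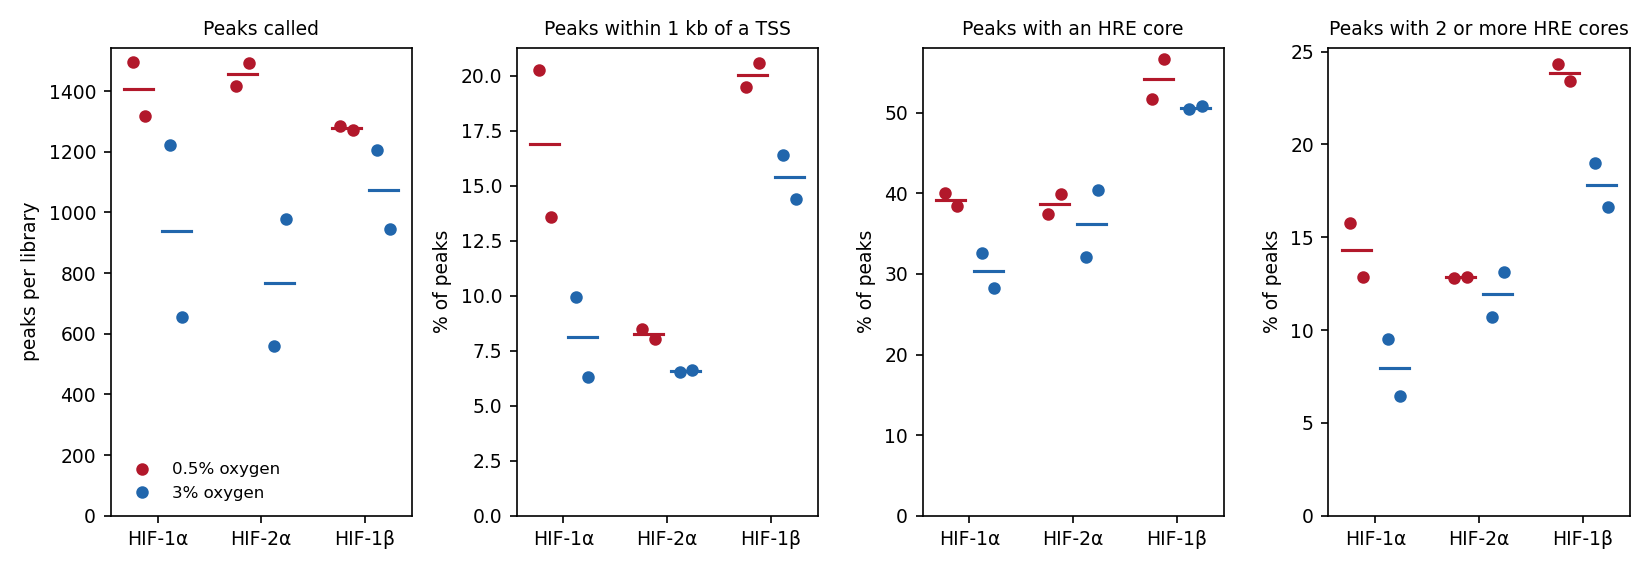
Peaks per list and percent of peaks at promoters, with an HRE core, and with 2 or more HRE cores (y axes) for each antibody and oxygen level (x axis); each dot is 1 library and each bar the mean of 2. The 3% dots sit below both 0.5% dots for every antibody in the panels of peak number and of promoter share, while the HIF-2α dots overlap in the HRE panels.

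In the full lists, overlap between lists of the same oxygen level could not be told from overlap between levels by the test. The share of the shorter list's peaks that the other list also held was 12.6% between the HIF-1α libraries at 0.5%, 6.90% between those at 3% and 6.96% on average between oxygen levels. For HIF-2α it was 18.8%, 19.96% and 21.3%, and for HIF-1β 35.0%, 42.2% and 35.7%. The excess within oxygen levels was 1.25 points on average, and the HIF-1α lists gave 2.78, the HIF-2α lists -1.92 and the HIF-1β lists 2.90 (exact permutation test over 27 pairings, one-sided, p = 0.185, adjusted p = 0.238). The smallest p that the pairings allow is 0.037. It was reached with lists of equal length (3.64 points) and with peaks scoring at least 100 (4.86 points), both at adjusted p = 0.0667 by exact permutation. With the upper 50% of each list by score the excess was 1.47 points (exact permutation p = 0.296). Most peaks of the shorter list were thus not in the other replicate, whereas most of the strongest were in all comparisons but some of those with a 3% HIF-1α list. Of the 100 best HIF-1α peaks of a 0.5% library, 87 to 89 were in the other 0.5% list and 37 to 61 in a 3% list, and of the 100 best of a 3% library 37 to 42 were in the other 3% list and 37 to 64 in a 0.5% list. The HIF-2α lists at 0.5% held 87 to 93 of each other's best 100 and those at 3% held 68 to 69. The HIF-1β lists held 97 to 100 at 0.5% and 96 to 99 at 3%. The 3% HIF-1α and HIF-2α lists were by this count the least alike of the replicate pairs, and each count of sites that follows for these antibodies rests on the sparser library of the pair.

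With all 4 libraries of each antibody, HIF-1β kept the largest part of its replicated sites in mild hypoxia, and the shares of HIF-1α and HIF-2α had overlapping intervals. Of 163 HIF-1α sites called in both 0.5% libraries, 37 were kept (22.7%, 95% exact binomial interval 16.5% to 29.9%, which covers counting error only), 41 were partly kept (25.2%) and 85 were 0.5%-only (52.1%, 44.2% to 60.02%). Of 257 HIF-2α sites, 85 were kept (33.1%, 27.4% to 39.2%), 92 were partly kept (35.8%) and 80 were 0.5%-only (31.1%, 25.5% to 37.2%). Of 436 HIF-1β sites, 265 were kept (60.8%, 56.0% to 65.4%), 82 were partly kept (18.8%) and 89 were 0.5%-only (20.4%, 16.7% to 24.5%). These classes are what the calls define and no test was run on them. With the first 3% HIF-1α library alone the kept share was 44.8%, and with the second alone, the list of 656 peaks, it was 25.8%. With the second 3% HIF-2α library alone it was 64.2%, and with the first alone, the list of 558 peaks, it was 37.7%. For HIF-1β it was 73.4% with the first 3% library alone and 66.7% with the second alone. With peaks scoring at least 100 only, HIF-1α kept 33.9%, HIF-2α 33.7% and HIF-1β 52.9% of its sites.

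The reverse count was closer to complete. Of 42 HIF-1α sites called in both 3% libraries, 37 (88.1%) were called in both 0.5% libraries and 4 in neither. For HIF-2α it was 85 of 109 (78.0%), with 6 in neither, and for HIF-1β 265 of 398 (66.6%), with 60 in neither (15.1%). As a background, the 4 libraries of HIF-1α gave 4360 merged sites, of which 0.849% were kept, 0.94% partly kept, 1.95% 0.5%-only and 0.0917% 3%-only. The 3752 HIF-2α sites were kept in 2.27%, partly kept in 2.45%, 0.5%-only in 2.13% and 3%-only in 0.16% of cases. The 3268 HIF-1β sites were kept in 8.11%, partly kept in 2.51%, 0.5%-only in 2.72% and 3%-only in 1.84%.

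Peaks that were also called at 3% stood higher in the score order of the 0.5% lists, though the difference did not pass after adjustment. In each of the 6 libraries at 0.5% the median score percentile of peaks that overlapped a 3% peak of the same antibody exceeded that of the other peaks, by 44.8 to 49.5 percentile points (mean 47.5, higher in 6 of 6 libraries; exact sign-flip permutation test, two-sided, p = 0.03125, the smallest that it allows, adjusted p = 0.0703). The 2 libraries of an antibody were split by the same 3% lists. Strong peaks were also found again more often within 1 oxygen level. Of the best 100 peaks of a 0.5% list, 87 to 100 were in the other 0.5% list, against 10.9% to 35.5% of all its peaks. No split by the other 0.5% list was made. Neither this difference nor the bins below can therefore be read as particular to 3% oxygen. When the 163 HIF-1α sites were divided into 4 bins of near equal size by their 0.5% percentile, 70.7% of the best bin were kept, then 12.2%, 2.5% and 4.88%. The HIF-2α bins kept 70.8%, 39.1%, 12.5% and 9.38%. The HIF-1β bins kept 82.6%, 71.6%, 56.9% and 32.1%. Kept shares thus dropped most steeply along the HIF-1α order and least along the HIF-1β order. The median 0.5% percentile was 98.5 for kept, 94.0 for partly kept and 82.0 for 0.5%-only HIF-1α sites, 95.01, 87.4 and 74.2 for HIF-2α, and 84.5, 76.1 and 63.2 for HIF-1β. None of the 85 HIF-1α and none of the 80 HIF-2α 0.5%-only sites lay above the median of the kept sites, and 12 of the 89 HIF-1β ones did.

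**Figure D2:**
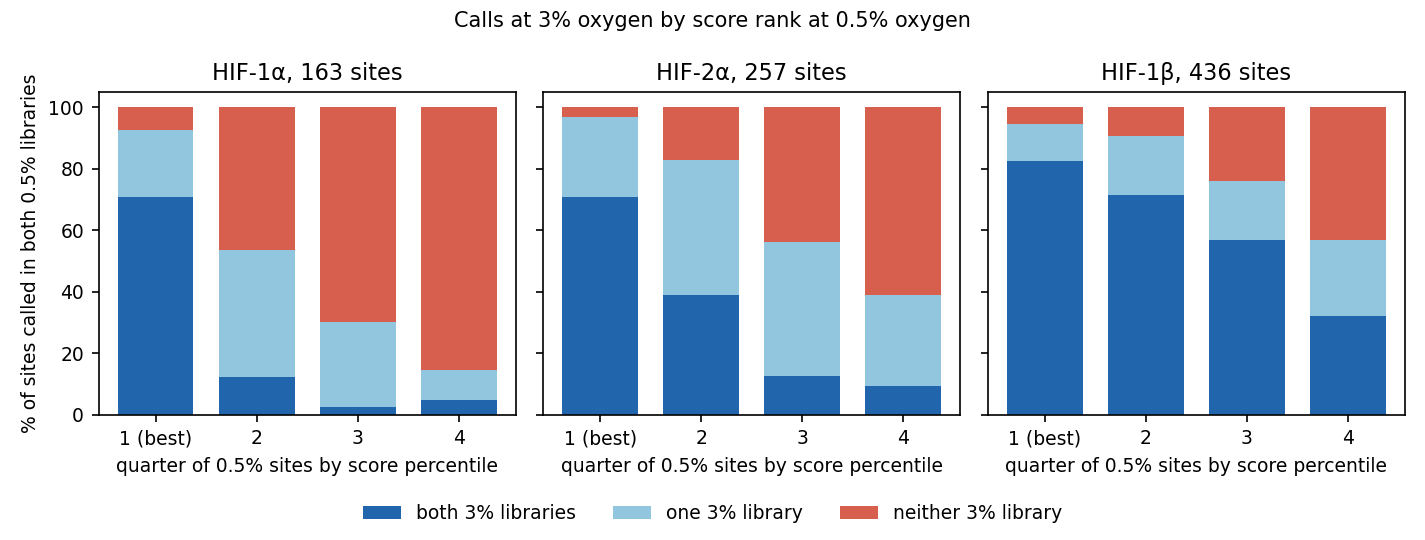
Share of sites (y axis, percent) that were kept, partly kept or 0.5%-only in 4 bins of the sites called in both 0.5% libraries, ordered by score percentile at 0.5% with the best bin first (x axis), for each antibody. Kept sites make up 70.7% of the best and 4.88% of the last HIF-1α bin, against 82.6% and 32.1% for HIF-1β.

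The boundary of the classes was narrow. The lowest 3% score of a kept HIF-1α site was 50.07 at P4HA1 in the second library, against the limit of 50. That site scored 600 and 374 at 0.5% and 271 in the first 3% library, so it was weak in 1 library only. P4HA1 encodes a subunit of the collagen prolyl 4-hydroxylase. PGK1, a glycolytic kinase, lay on the other side, with 578 and 230 at 0.5%, 88.8 in the first 3% library and no call in the second. The lowest 3% scores of kept HIF-2α and HIF-1β sites were 50.36 at OSMR and 50.92 at COL4A1.

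The 6 best kept HIF-1α sites stood near the top of every list. They were chosen among sites called in all 4 libraries by their mean percentile, so part of this agreement comes from the choice. The site at ANKRD37, an ankyrin repeat gene induced by hypoxia, scored 1664 and 1050 at 0.5% and 1364 and 664 at 3%, and was ranked 2, 2, 1 and 4 in the 4 lists. FAM174B was ranked 6 and 4 at 0.5% and 3 and 1 at 3%, and NARF 3 and 5 against 2 and 3. The site between RRP12 and PGAM1, the latter a glycolytic mutase, led both 0.5% lists with scores of 1975 and 1423 and was ranked 6 and 6 at 3%, with 740 and 385. ENO1, the glycolytic enolase, was ranked 5 and 3 at 0.5% and 7 and 7 at 3%, and PNRC1, a nuclear receptor coactivator, 8 and 8 against 5 and 5. All 6 were in the best 10 peaks of every HIF-1α library.

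The strongest 0.5%-only HIF-1α site was at HK2, the hexokinase that starts glycolysis, 0.201 kb upstream of the TSS, with scores of 313 and 165 and ranks of 29 and 38. PFKFB4, a bifunctional enzyme that sets the level of an activator of glycolysis, scored 295 and 132 (ranks 31 and 53). ZNF770, a zinc finger gene, scored 225 and 176, and RBPJ, the DNA-binding partner of Notch, 230 and 131. PLOD2, a lysyl hydroxylase of collagen, scored 161 and 229 for HIF-1α and had no HIF-1α call at 3%, yet its site was kept for HIF-2α (204 and 143 at 0.5%, 72.1 and 86.6 at 3%) and for HIF-1β (412 and 253 at 0.5%, 251 and 98.04 at 3%). Their ranks ran from 26 (PLOD2 in the second library) to 74. The 3%-only HIF-1α sites were the 4 at PPM1H, OR4D9, KPNA2 and EPHB3, whose highest score was 105, and the first 3 are named by the rule while EPHB3 was added to complete the count.

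HIF-2α was led by other sites. SERTAD4 scored 453 and 513 at 0.5% and 435 and 675 at 3% (ranks 3, 4, 4 and 1), ROBO2 430 and 322 at 0.5% and 580 and 342 at 3%, and CES3, a carboxylesterase gene, 761.7 and 585 at 0.5% and 550 and 235 at 3%. These 3 sites held no HRE core and had no HIF-1β call at either oxygen level, and the ROBO2 site held an AP-1 motif. ARRDC3, an arrestin-domain gene whose site lay 103 kb from the TSS, scored 470 and 509 at 0.5% and 247 and 445 at 3%. SEMA4B, a semaphorin gene, scored 327 and 576 at 0.5% and 276 and 275 at 3%, and the site nearest AC092291.2 388 and 466 at 0.5% and 208 and 381 at 3%. These last 3 had HRE cores, an AP-1 motif and HIF-1β calls in all 4 libraries. The best 0.5%-only HIF-2α sites were at DNAJB12 (178 and 128), ADM (126 and 151), DEAF1 (112 and 145), CCN5 (111 and 133) and NPY4R (105 and 120), all with ranks of 40 or later. The best 3%-only sites, nearest MYC, KLF14 and MRPL45, scored at most 94.05, and MYC lay 72.5 kb from its site.

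For HIF-1β the kept list opened with the HIF-1α leaders. ANKRD37 scored 1577 and 1849 at 0.5% and 1463 and 1140 at 3%, and was ranked 3, 1, 1 and 1. RRP12 scored 1672 and 1280 at 0.5% and 909 and 488 at 3%, and ENO1 1593 and 1298 against 720 and 445. NDRG1, a stress-response gene widely used as a hypoxia marker, scored 1017 and 990 against 611 and 425. FAM174B was ranked 9 and 6 at 0.5% and 2 and 3 at 3%, and NARF 13 and 15 against 3 and 2. The best 0.5%-only HIF-1β sites were at HK2 (344 and 325), FAM210A (368 and 246), PFKFB4 (213 and 244), TEX44 (156 and 197) and FAM162A (220 and 156), and each of these 5 was also called by HIF-1α in both 0.5% libraries. The best 3%-only HIF-1β sites were at PLEKHA6 (154 and 110), PTPRB (134 and 101.8) and DSTN (138 and 100), and none had a HIF-1α call at 0.5%.

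Genes of HIF-controlled pathways, 98 in 10 lists, were then looked up by nearest TSS. Among all 19794 protein-coding genes, 0.187% had a kept and 0.409% a 0.5%-only HIF-1α site, 0.419% and 0.379% a HIF-2α site of these classes, and 1.15% and 0.409% a HIF-1β site. Of the 98 list genes, 19 had a kept, 8 a partly kept and 12 a 0.5%-only HIF-1α site as their best class. The counts were 11, 8 and 8 for HIF-2α and 27, 9 and 11 for HIF-1β. In all, 29 list genes had a kept site of some antibody and 17 had a 0.5%-only site and no kept one. The lists were made of known HIF targets, so their shares are a description and not evidence about the pathways.

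Of the 24 genes of glycolysis and glucose uptake, the largest list, 9 had a kept HIF-1α site: the transporter SLC2A3, the enzymes GPI, PFKFB3, ALDOA, GAPDH, ENO1 and LDHA, the kinase PDK1 that restrains pyruvate dehydrogenase, and the lactate exporter SLC16A3. Another 4 had a partly kept one, namely SLC2A1, PFKL, PGK1 and PKM, and 3 had a 0.5%-only one, namely HK2, PFKP and PFKFB4. HIF-1β was kept at 11 of the 24 and 0.5%-only at 6, the latter being HK1, HK2, PFKL, PFKFB4, TPI1 and MXI1. HIF-2α was kept at 4, SLC2A3, ALDOA, LDHA and PDK1, and 0.5%-only at GPI. The LDHA HIF-1α site scored 195 and 139 at 0.5% and 181 and 109 at 3%, and the GPI site 761 and 533 against 231 and 111. GPI thus scored above LDHA in all 4 HIF-1α libraries.

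The smaller lists split within themselves. Of 6 mitophagy and mTOR genes, BNIP3, BNIP3L and DDIT4 had a kept site of HIF-1α and of HIF-1β as their best class. The kept DDIT4 sites lay upstream, at -12.903 kb (HIF-1α) and -12.986 kb (HIF-1β) from the TSS. By any TSS within 5 kb, a rule added after the data were seen, DDIT4 was partly kept for HIF-1α and 0.5%-only for HIF-1β. BNIP3 and BNIP3L stayed kept for both antibodies by that rule. BNIP3 and BNIP3L mark mitochondria for removal and DDIT4 restrains mTOR. Of 7 glycogen genes, PPP1R3C, a glycogen-targeting phosphatase subunit, was kept for all 3 antibodies, and the HIF-1α site at PGM1, phosphoglucomutase, was 0.5%-only (164 and 121). Of 7 demethylases, KDM3A was kept for HIF-1α (264 and 174 at 0.5%, 262 and 147 at 3%) and for HIF-1β but was 0.5%-only for HIF-2α (67.9 and 60.6). KDM4B was kept for HIF-1β and KDM5B was 0.5%-only for it. Of 7 genes of collagen modification, P4HA1 and P4HA2 were kept for HIF-1α, and PLOD2 and the lysyl oxidase gene LOXL2 for HIF-2α. The LOXL2 HIF-2α site scored 425 and 430 at 0.5% and 94.5 and 263 at 3%.

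Genes of the oxygen sensor itself and of secreted factors were seldom kept. EGLN1 and EGLN3, the prolyl hydroxylases that target HIF-α, were kept for HIF-1β, whereas the HIF-1α sites were partly kept at EGLN1 and 0.5%-only at EGLN3, and the HIF-2α sites of both were 0.5%-only. Of 11 secreted vascular genes none had a kept HIF-1α site. ADM, the vasodilator peptide adrenomedullin, was 0.5%-only for all 3 antibodies, and its HIF-1α site scored 168 and 96.8, its HIF-2α site 126 and 151 and its HIF-1β site 145 and 152. STC2, a secreted glycoprotein, was 0.5%-only for HIF-1α (141 and 82.0) and HIF-2α (83.2 and 55.8). TGFA, a growth factor, was kept for HIF-2α. CA9, the carbonic anhydrase that acidifies the space around hypoxic cells, was 0.5%-only for HIF-1α with scores of 78.9 and 53.6, close to the limit. ERO1A, an oxidase of the endoplasmic reticulum, and FAM162A, a mitochondrial protein gene, were 0.5%-only for both HIF-1α and HIF-1β. Of 10 AP-1 genes, JUN alone had a 0.5%-only HIF-1α site, 28.4 kb from its TSS, and scored 140 and 50.46.

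**Figure D3:**
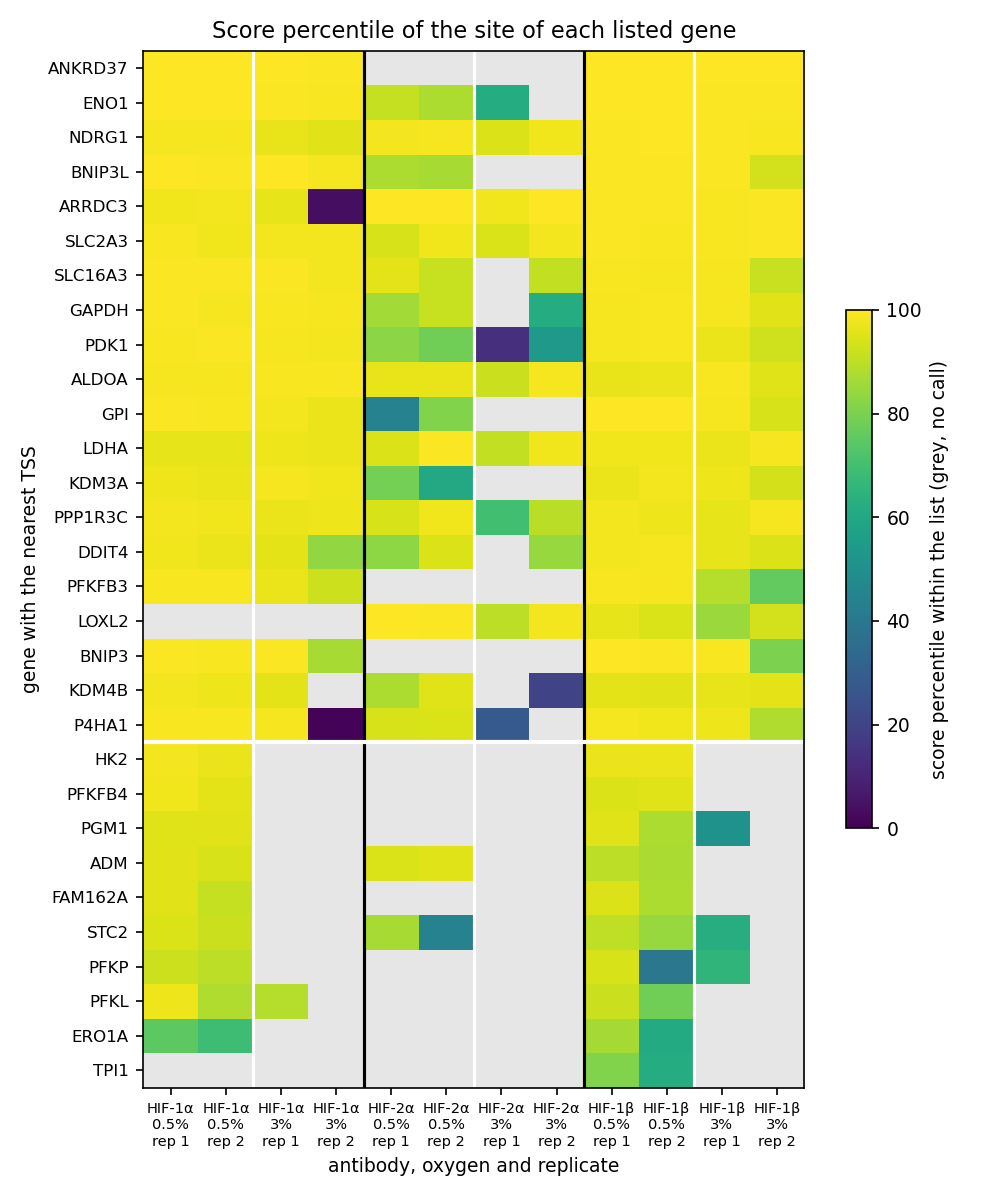
Score percentile within its own list (colour) of the site of 30 list genes (y axis) in the 12 libraries (x axis), with the 20 genes kept for some antibody above and 10 genes with a 0.5%-only site below; grey means no call, or that the gene had no site of that antibody called by both libraries of an oxygen level. ANKRD37 and ENO1 are coloured in every HIF-1α and HIF-1β library, while HK2 and PFKFB4 are coloured in the 0.5% and grey in the 3% libraries of these antibodies and had no such HIF-2α site.

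Sites kept for all 3 antibodies were few, at PDK1, ALDOA, SLC2A3, PPP1R3C, NDRG1, LDHA and ARRDC3, which makes 7. The 12 sites that were 0.5%-only for both HIF-1α and HIF-1β were at HK2, PFKFB4, PPP1R3E, EPOP, ADM, NUDT18, FAM162A, HDHD5, MALL, VDAC1, ERO1A and ARID1B. The 6 that were 0.5%-only for both α subunits were at ADM, EGLN3, STC2, DNAJB12, HILPDA and TNIP1.

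Location separated the classes for HIF-1β and less so for the α subunits. Promoter sites made up 62.2% of kept, 65.9% of partly kept and 55.3% of 0.5%-only HIF-1α sites, and 15.3%, 13.04% and 20% of the HIF-2α sites. For HIF-1β they made up 27.5% of kept, 35.4% of partly kept, 56.2% of 0.5%-only and 15% of 3%-only sites. The median distance to a TSS was 0.229 kb for kept and 0.577 kb for 0.5%-only HIF-1α sites, 23.7 and 17.2 kb for HIF-2α, and 12.1 and 0.321 kb for HIF-1β. The 3%-only sites lay farther out, at a median of 56.3, 69.3 and 17.5 kb for HIF-1α, HIF-2α and HIF-1β. The loss of promoter peaks from whole lists was therefore not matched by a lower promoter share among kept than among 0.5%-only HIF-1α sites.

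HRE cores were common in every class of HIF-1α sites, in 91.9% of kept, 92.7% of partly kept and 88.2% of 0.5%-only sites. They were in 65.9%, 77.2% and 66.2% of HIF-2α sites and in 78.9%, 86.6% and 91.0% of HIF-1β sites, and in 65.0% of 3%-only HIF-1β sites. At least 2 cores were present in 56.8% of kept and 50.6% of 0.5%-only HIF-1α sites and in 38.8% and 28.8% of HIF-2α sites. HIF-1β went the other way, with 38.1% of kept (95% exact binomial interval 32.2% to 44.3%) and 68.5% of 0.5%-only sites (57.8% to 78.0%). AP-1 motifs were in 8.11% of kept and 8.24% of 0.5%-only HIF-1α sites, 29.4% and 25% of HIF-2α sites and 17.7% and 19.1% of HIF-1β sites, against 2.46% of TSS windows. Sites that were 0.5%-only for HIF-1β were thus richer in promoters and in paired cores than kept ones, as counts of sites that share libraries and with no test.

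**Figure D4:**
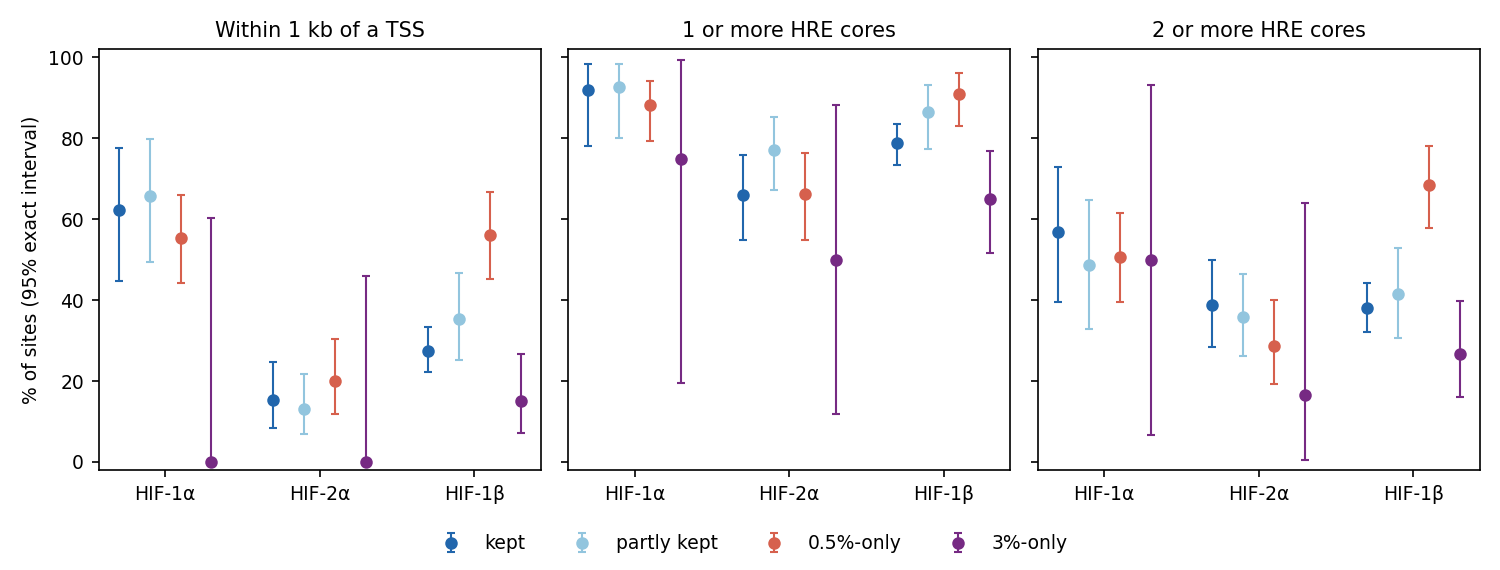
Percent of sites (y axis) at promoters, with an HRE core and with 2 or more HRE cores for each antibody (x axis) and class of site (colour). Bars are 95% exact binomial intervals, which cover counting error only. The intervals of kept and 0.5%-only sites overlap for HIF-1α and HIF-2α and lie apart for HIF-1β in the promoter panel and in that of 2 or more cores.

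The HIF-1β partner was called at all 37 kept HIF-1α sites, and in all 4 HIF-1β libraries at 35 of them. Among the 85 0.5%-only HIF-1α sites, 13 had HIF-1β in all 4 libraries, 12 had it in both 0.5% and neither 3% library, and 21 had none. Of the kept HIF-2α sites 42 had HIF-1β in all 4 libraries and 30 had no HIF-1β call. Cores were in 39 of the 42 and 9 of the 30, and a HIF-1α call at 0.5% in 26 and 0. The 30 sites ranked high, at a median score percentile of 94.6 at 0.5% and 92.9 at 3%, against 95.9 and 90.9 for the 42. Both HKC8 HIF-2α libraries at 16 h called 23 of the 30 and all 42. Both HIF-2α libraries of RCC4, a renal carcinoma line, called 16 and 37, and both of HepG2, a liver carcinoma line, called 0 and 20. The paper, by signal in HKC-8 at 16 h, found no evidence of HIF-α binding without HIF-1β, whereas the counts here are of calls. HIF-1α was called in a 0.5% library at 100 of 265 kept, 49 of 89 0.5%-only and 0 of 60 3%-only HIF-1β sites. Neither α subunit was called at 83, 21 and 43 of them. Across whole lists the share of HIF-α peaks with a HIF-1β call at the same oxygen level differed by -3.34 points (exact permutation test over 36 arrangements, p = 0.167, adjusted p = 0.238, where the smallest p is 0.0556). The HIF-1α lists gave -6.50 points, with no overlap of the ranges, and the HIF-2α lists -0.18, with overlapping ranges.

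Calls in other libraries, which had no part in defining the classes, were counted with no test, and kept sites also had the better median scores at 6 h. In the HKC8 time course at 16 h, both libraries of the same antibody called 37 of 37 kept and 49 of 85 0.5%-only HIF-1α sites, 78 of 85 and 27 of 80 HIF-2α sites, and 238 of 265 and 63 of 89 HIF-1β sites. The 3%-only HIF-1β sites were called there in 20 of 60 cases. At 48 h the counts were 28 of 37 and 16 of 85 for HIF-1α, 25 of 85 and 4 of 80 for HIF-2α, and 186 of 265 and 15 of 89 for HIF-1β. In RCC4 cells in normoxia, which lack the von Hippel-Lindau protein, they were 34 of 37 and 54 of 85 for HIF-1α and 60 of 85 and 35 of 80 for HIF-2α. HIF-1β differed there, with 104 of 265 kept, 48 of 89 0.5%-only and 4 of 60 3%-only sites, and in HepG2 liver carcinoma cells at 0.5% with 97 of 265, 60 of 89 and 4 of 60. A separate set of wild-type HKC8 libraries at 0.5% for 16 h called 28 of 37 kept and 47 of 85 0.5%-only HIF-1α sites and 81 of 85 and 60 of 80 HIF-2α sites. Its HIF-1β libraries went the other way, with 158 of 265 kept, 62 of 89 0.5%-only and 43 of 60 3%-only sites. At the sites of this set the share of a 6 h list's peaks differed by -0.18 points between oxygen levels (exact permutation p = 0.944, adjusted p = 0.944). This mean joins opposite directions. The HIF-1α lists differed by -4.43 points, from a mean of 10.1% at 0.5% to 5.65% at 3% with no overlap of the ranges. The HIF-2α lists differed by 1.08 and the HIF-1β lists by 2.82, with overlapping ranges.

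The order among kept sites was compared by their rank within the kept set, a measure added after the data were seen. Of the 37 HIF-1α sites, 10 had better ranks in both 3% libraries than in either 0.5% library (27% of the kept sites) and 11 had worse ones (29.7%). For HIF-2α it was 18 and 18 of 85 (21.2% each way) and for HIF-1β 58 and 55 of 265 (21.9% and 20.8%). These shares are a description, and no site was tested. VGLL4, a transcriptional cofactor gene, had kept ranks of 32 and 35 at 0.5% and 15 and 21 at 3%, and KDM3A 27 and 28 against 18 and 14. ALDOA had 20 and 17 against 11 and 7, and LDHA 33 and 31 against 27 and 19. PFKFB3, a paralogue of PFKFB4, had 15 and 12 at 0.5% and 29 and 31 at 3%, ZNF395 11 and 9 against 24 and 29, and GPI 12 and 11 against 23 and 18. Glycolytic genes were among both sets of sites.

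**Figure D5:**
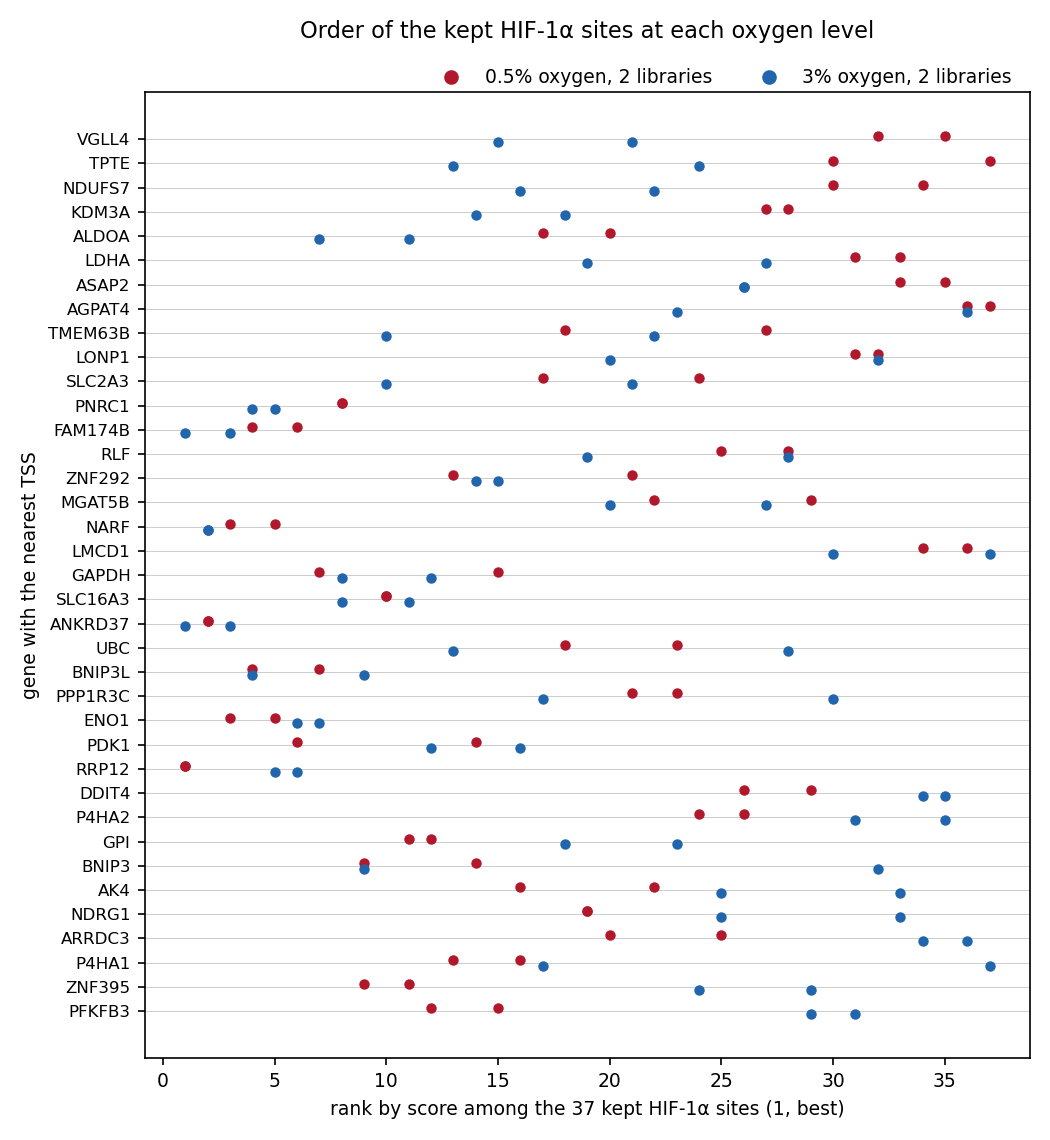
Rank by score among the 37 kept HIF-1α sites (x axis, 1 is best) in the 0.5% libraries (red) and 3% libraries (blue), with sites named by nearest gene (y axis) and ordered by their mean shift in rank. VGLL4 and KDM3A have both blue dots at better ranks than both red dots, and PFKFB3 and ZNF395 both at worse ranks.

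The HIF-1α sites with worse ranks at 3% held 2 or more cores in 8 of 11 cases against 2 of 10 with better ranks, and had a HIF-2α call at 0.5% in 10 of 11 against 4 of 10. The 16 sites with overlapping ranks held 2 or more cores in 11 cases, a share near that of the worse ranks, and a HIF-2α call in 9. Among HIF-1β sites, promoters made up 34.5% of those with worse and 17.2% of those with better ranks, and a HIF-1α call at 0.5% was present at 56.4% and 22.4%. HIF-1β sites with overlapping ranks lay between, at 28.9% for promoters and 36.8% for a HIF-1α call. The HIF-1β site at PFKFB3 had list ranks of 14 and 16 at 0.5% and 137 and 229 at 3%, and that at HES1, a Notch target, 233 and 299 against 54 and 17. Among HIF-2α sites, 6 of 18 with worse, 1 of 18 with better and 6 of 49 with overlapping ranks were promoters. These features were read after the ranks had been seen and have no test.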

How the data were processed

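Peak lists of ChIP-seq libraries were analysed from 12 HKC8 samples. Per the study's methods and the submitters' processing notes, the authors trimmed reads with Trim Galore 0.3.3, aligned them to GRCh37 (hg19) with BWA 0.7.5a-r405, removed low-quality mappings and black-list regions with SAMtools 0.1.19 and bedtools 2.17.0, marked duplicates with Picard 1.106 and called peaks in each sample with MACS in control mode, whose version is not given in the sources used here. Each deposited list gives a position and a score per peak, and the scores have the form of -10 log10 p. The authors also ran a second caller and a background filter for their own analysis. The lists used here hold MACS calls numbered without a gap and down to a score of 50, so they were taken as made before those filters. Read depth is not in the lists, and no interval or floor from read counts was computed.

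Peaks on chromosomes 1 to 22, X and Y were used, which left out 63 of 13843. Sites, classes and named genes followed the rules given in the text. For each antibody the 6 best kept, 5 best 0.5%-only and 3 best 3%-only sites by mean score percentile were named, with up to 20 list genes at kept sites and 10 at 0.5%-only sites; other genes were named to complete a count or after their values were seen. The members and gene lists were chosen with earlier results of these data known. Distances were taken to 78564 distinct TSSs of GENCODE protein-coding transcripts lifted to GRCh37, and motifs were searched within 100 bp of the peak centre. Libraries were compared by exact permutation of oxygen labels within antibody, averaged over the 3 antibodies, with Benjamini-Hochberg adjustment over 9 tests at a threshold of 0.05. Binomial intervals are Clopper-Pearson at 95% and cover counting error only. Python 3.11.15, NumPy 2.4.6, pandas 2.3.3, SciPy 1.17.1 and pysam 0.24.0 were used, and the scripts were tested on simulated lists with known answers. Alternatives were a score limit of 100, lists cut to equal length or to their upper part, stricter overlap and fixed windows, other motif windows and TSS sets, each library left out and a replicate block.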

Additional observations from a re-analysis of the deposited data

Results flagged for a closer look

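Outside the comparisons, 63 of the 13843 peaks lay off chromosomes 1 to 22, X and Y. They occurred in all 12 libraries, with 1 to 11 in each, 30 at 0.5% and 33 at 3% oxygen, and 20 of them were among the best 100 peaks of their list. The unplaced contig gl000220 gave 14 of them in 8 libraries with a best rank of 2, and the mitochondrial chromosome gave 13 in 4 libraries. They stand out because they lie in data that no comparison used, and no control list was set beside them.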

How the results depend on the processing

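Under other settings the values kept their direction and side of the threshold, or stayed within counting error where no test was run, in 67 of 80 recomputations that used all libraries and in 142 of 180 that left 1 out. At a score of at least 100 the difference in peak number was -0.89 on the log2 scale (exact permutation p = 0.0278, adjusted p = 0.0703) and in promoter share -2.79 points (adjusted p = 0.44), both no longer called, while that in HRE share became -7.83 points (adjusted p = 0.0278), the share at 16 h wild-type sites turned to 2.07 points, HIF-1α kept 33.9%, HIF-2α 33.7% and HIF-1β 52.9% of sites, and the 0.5%-only share for HIF-1α was 40.3%. With lists of equal length the share with 2 or more cores differed by -9.56 points and was called (exact permutation, adjusted p = 0.0278), and HIF-2α sites were kept in 40% and 0.5%-only in 23.6%. AP-1 motifs over the whole peak differed by 0.64 points. By any TSS within 5 kb, a rule added after the data were seen, 6 and not 11 list genes had a kept HIF-2α site. The cause of these changes was not tested.

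Without 1 library, the differences ranged from -0.78 to -0.48 for log2 peak number, from -6.15 to -3.91 points for promoter share, from -6.32 to -3.57 for HRE share, from -4.95 to -3.92 for 2 or more cores, from -0.98 to 0.011 for AP-1, from -0.72 to 3.75 for overlap, from -5.53 to -0.012 for HIF-1β company, from -2.46 to 2.10 for 16 h wild-type sites and from 46.9 to 48.1 for score rank. Peak number was no longer called without any 1 of the 0.5% libraries or the second 3% HIF-1α library, nor promoter share without the first 0.5% (-3.91) or the second 3% (-4.42) HIF-1α library (adjusted p = 0.0703 to 0.0833 by exact permutation), where fewer arrangements remain. HRE share (-6.32) and 2 or more cores (-4.84) were called without the second 3% HIF-2α library (exact permutation, both adjusted p = 0.0278). Differences that turned sign were those of 16 h wild-type sites without the first 0.5% HIF-1α (0.263), the second 0.5% HIF-1β (1.41), the second 0.5% HIF-2α (1.03), the first 3% HIF-1β (2.10) or the first 3% HIF-2α library (0.613), of AP-1 without the second 0.5% HIF-2α library (0.0108) and of overlap without the first 3% HIF-1β library (-0.722). HIF-1α kept shares ranged from 2.48% to 44.8%, HIF-2α ones from 6.41% to 64.2% and HIF-1β ones from 21.99% to 73.4%, and the 0.5%-only shares in the same order from 52.1% to 93.7%, 31.1% to 84.9% and 20.4% to 69.3%, since a class then rests on 1 list.

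Site by site, same-numbered libraries hardly deviated together in their calls, with correlations of -0.008, 0.0129 and 0.0188 for HIF-1α, HIF-2α and HIF-1β. Over whole lists, the second HIF-1β libraries shared wide peaks, with medians of 495 bp at 0.5% and 632.5 bp at 3%. The first HIF-1β libraries had 238 and 221 bp. A pairing by replicate number was thus not excluded for whole lists. With the replicate block, peak number (-0.63) and promoter share (-5.03) had p = 0.03125 by exact permutation, the smallest possible, and adjusted p = 0.0703.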
